A study of Mus musculus with 9 samples.

Results

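The 33 genes described here encode the glucose and lactate carriers, the enzymes of glycolysis, the enzymes that make and break fructose 2,6-bisphosphate, and the enzymes of the pentose phosphate pathway. They were taken by symbol from a deposited table of read counts for 24421 gene symbols, and all 33 were found in it. The counts come from bulk RNA sequencing of mouse bone marrow cells on the C57BL/6 background, from which lineage-positive cells had been removed and which were then grown with SCF, IL-3 and IL-6 over 5 days into cells described as myeloid blast-like. There were 3 groups of 3 libraries: wildtype (WT) cells with vehicle, Tet2-/-Flt3ITD cells with vehicle for 24 h, and Tet2-/-Flt3ITD cells with SHP099 for 24 h. No treatment time is given for the WT cells. Tet2-/-Flt3ITD cells, called mutant below, carry by their label a loss of Tet2, whose product oxidises methylated cytosine, and the internal tandem duplication (ITD) of Flt3, a receptor tyrosine kinase. SHP099 is an allosteric inhibitor of the tyrosine phosphatase SHP2, the product of Ptpn11, which carries signals from growth factor receptors and KIT to the RAS pathway. The mutant cultures came from individual mice, whereas the source animals of the WT cultures are not named individually. No WT cells with SHP099 were analysed here, so the response to the compound could be read in mutant cells alone.

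Glycolysis splits glucose into pyruvate in the cytosol and yields ATP and NADH, and in rapidly growing myeloid cells much of the pyruvate is turned into lactate and exported. The pentose phosphate pathway branches off at glucose 6-phosphate. Its oxidative arm makes NADPH, which neutrophil-lineage cells use for the oxidative burst and for glutathione, and its other arm makes ribose 5-phosphate for nucleotides and returns carbon to glycolysis. Many steps have several isozymes encoded by separate genes, which differ in tissue distribution and regulation.

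Library totals ran from 27242168 to 40681117 counts in WT, from 30982845 to 41567622 in mutant vehicle and from 41053983 to 45810089 with SHP099. Tet2 stood at 33.2 ± 1.48 CPM (counts per library total after scaling; mean ± SD, n = 3) in WT, 15.5 ± 1.30 in mutant vehicle and 12.4 ± 1.28 in SHP099-treated cells, so the libraries labelled as mutant were the low ones. Gene counts do not show the duplication in Flt3, whose level was at most 3.01 CPM, and Ptpn11 lay between 276 and 378 CPM. The progenitor marker Kit was at 140 to 183 CPM and the granule gene Mpo at 5782 to 11646 CPM in every library, while 10 lymphoid markers together reached at most 9.89 CPM. One library stood apart in its content of the ribosomal transcript Rn45s, which took 4.33% of the counts of SHP099 replicate 3. Without that library, 5 members were called higher and 1 lower with SHP099, beside 673 and 1094 of 13352 genes. With all libraries these were 7 and 2 members, beside 1169 and 1721 of 13270 genes. Between genotypes, 4 members were higher and 7 lower without that library. Leaving out any 1 library gave 1351 to 1979 genes higher and 1528 to 2048 lower there. In treated mutant against WT cells without it, 6 members were higher and 5 lower, and 1080 genes were higher. Any 1 library left out gave 1650 to 2222 genes lower there.

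The sequences just upstream of the start site are shown for 4 members that frame the results: Hk2 and Slc16a1, which were higher in mutant cells and lower with SHP099, and the lactate dehydrogenase pair Ldha and Ldhb, of which Ldhb rose with SHP099. They are the 250 bases before the RefSeq start on GRCm38.p6, written in the direction of the gene. Capitals mark ACGTG or GCGTG on either strand, the core letters of the hypoxia response element, and these letters overlap CACGTG, the palindromic E-box core known from MYC.
Hk2, chr6:82774455-82774704, minus strand: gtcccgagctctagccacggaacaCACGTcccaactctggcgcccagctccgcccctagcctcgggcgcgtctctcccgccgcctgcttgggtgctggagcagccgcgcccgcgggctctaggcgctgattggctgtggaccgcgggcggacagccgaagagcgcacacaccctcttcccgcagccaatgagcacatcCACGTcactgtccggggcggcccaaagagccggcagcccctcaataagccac
Slc16a1, chr3:104638414-104638663, plus strand: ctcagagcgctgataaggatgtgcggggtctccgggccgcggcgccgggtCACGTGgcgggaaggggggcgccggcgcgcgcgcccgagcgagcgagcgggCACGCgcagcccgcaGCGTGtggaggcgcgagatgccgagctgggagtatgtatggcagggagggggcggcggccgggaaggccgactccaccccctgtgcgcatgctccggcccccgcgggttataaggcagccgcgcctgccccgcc
Ldha, chr7:46845554-46845803, plus strand: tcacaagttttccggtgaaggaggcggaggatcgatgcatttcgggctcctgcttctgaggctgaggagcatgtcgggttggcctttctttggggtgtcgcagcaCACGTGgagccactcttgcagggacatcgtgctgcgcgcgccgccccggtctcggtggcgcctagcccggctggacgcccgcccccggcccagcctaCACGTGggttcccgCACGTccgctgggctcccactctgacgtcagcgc
Ldhb, chr6:142507958-142508207, minus strand: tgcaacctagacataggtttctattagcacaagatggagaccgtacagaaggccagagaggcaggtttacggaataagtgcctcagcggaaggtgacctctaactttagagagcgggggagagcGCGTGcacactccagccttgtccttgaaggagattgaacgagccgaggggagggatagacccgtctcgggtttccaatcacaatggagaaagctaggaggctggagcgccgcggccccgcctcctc
The Ldha window shown held 2 copies of CACGTG and the Slc16a1 window 1, whereas the Hk2 and Ldhb windows held none. RefSeq lists a second Ldha start, and its window (chr7:46846832-46847081, not shown) held no CACGTG. Promoters were listed for 32 of the 33 members, all except Slc2a3. At least 1 window with ACGTG or GCGTG was found for 28 of these 32 genes (87.5%), compared with 41.5% of all genes in the RefSeq table and 60.4% of the 10072 genes that were both tested here and in that table. For CACGTG the figures were 5 of 32 members (15.6%), 6.86% of all genes and 9.72% of tested genes. A gene counted if any of its windows matched, with 48 windows for the 32 members and 32851 for all 27025 genes. By window, ACGTG or GCGTG was in 79.2% of member windows and 38.6% of all, and CACGTG in 10.4% and 6.02%. The GC box letters GGGCGG were in 75% of members and 62.4% of tested genes, and CCAAT was in 37.5% and 40.3%. These are matches of letters, searched on both strands, and say nothing of which factor binds.

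Per kilobase of transcript, the scale on which genes can be compared, Aldoa (aldolase A) was the highest in mutant vehicle cells at 904 CPM per kb, followed by Pkm (pyruvate kinase) at 754, Gapdh at 637 and Ldha (the main muscle-type lactate dehydrogenase subunit) at 626. Gapdh and Ldha, neighbours in that order, were closer to each other than their SDs, as were Hk3 and Pgk1 at 114 and 118 CPM per kb. The pentose phosphate enzymes were also abundant, from Tkt (transketolase) at 494 down to Pgls (6-phosphogluconolactonase) at 100 CPM per kb. The carriers and regulators were lower, with Slc2a3 at 57.2, Slc16a1 at 39.8 and Hk2 at 28.3 CPM per kb, and Ldhb and Aldoc lowest apart from Eno1 and Eno2 at 3.12 and 2.41. All members together took 1.31% to 1.42% of the counts in each of the 9 libraries, so the summed level hardly moved between groups while single members did.

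**Figure D1:**
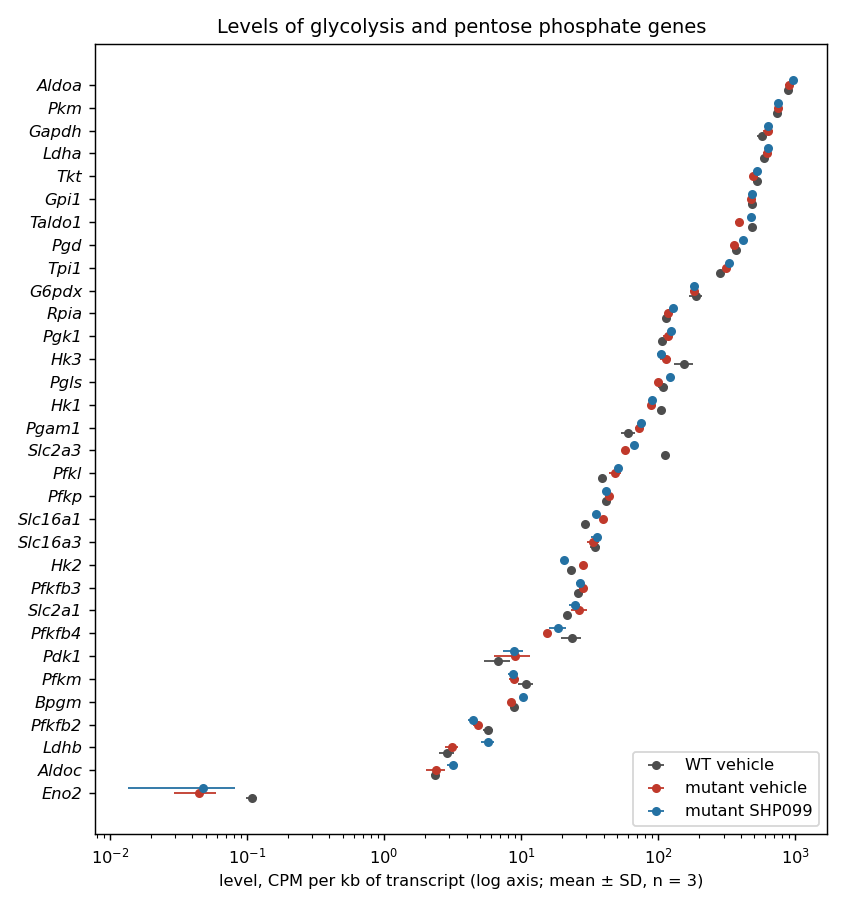
Level of 32 members in CPM per kb of transcript on a log axis, one row per gene ordered by the mutant vehicle mean; points are means and bars SD of 3 libraries per group. The 3 groups lie close together for most genes, while Slc2a3 is 113 CPM per kb in WT and 57.2 in mutant vehicle cells, and Ldhb is 5.73 with SHP099 and 3.12 with vehicle.

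Counts of some members are uncertain. Eno1, which encodes the ubiquitous enolase, was listed with 0 to 2 counts in every library and failed the filter on low counts, so 32 of 33 members were tested. Of the 50-base words of its transcript, 72.2% also occur in transcripts of other genes, chiefly Eno1b, which itself had 0 to 7 counts. Whether these shared words are the reason was not tested, and no statement on enolase is made. Eno2 (neuronal enolase) was at 0.0514 to 0.336 CPM and passed the filter at the level of its 3 WT libraries, so its difference from WT is not read. Gapdh shared 82.5% and Pgk1 68% of such words with other transcripts and Pgam1, Pkm, Ldhb, Gpi1 and Pfkfb2 shared between 25.1% and 41.5%, so reads of these genes could be split or dropped.

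With SHP099, 9 of the 32 tested members, beside 21.8% of all genes, changed in mutant cells at an adjusted p under 0.05 (edgeR quasi-likelihood test, Benjamini-Hochberg over 13270 genes). Ldhb, Aldoc, Pgls, Taldo1, Bpgm, Slc2a3 and Pgd rose, and Hk2 and Slc16a1 fell. Those 7 of 32 (21.9%) stand beside 8.81% of all genes called higher, and those 2 (6.25%) beside 13% called lower. That main fit does not use the pairing of same-numbered mutant vehicle and SHP099 libraries. A fit to the mutant libraries alone with the replicate number as a block does, and it called 9 members higher and 3 lower. It called 2791 and 2772 of 13004 genes, so the members' share of higher calls lay nearer to that of all genes. In the main fit the members' median log2 fold change was 0.05, compared with 0.00 over all genes tested, and 21 of 32 were above 0. Between mutant and WT vehicle cells, 6 members were higher and 6 lower (18.8% each), beside 16.9% and 14.7% of all genes, shares close to the background. SHP099-treated mutant cells differed from WT in 10 members upward and 6 downward, beside 15.4% and 16.3%. The 3 comparisons share libraries, so the values of each are given side by side. In bulk RNA, fewer cells of a type and less RNA per cell cannot be told apart.

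**Figure D2:**
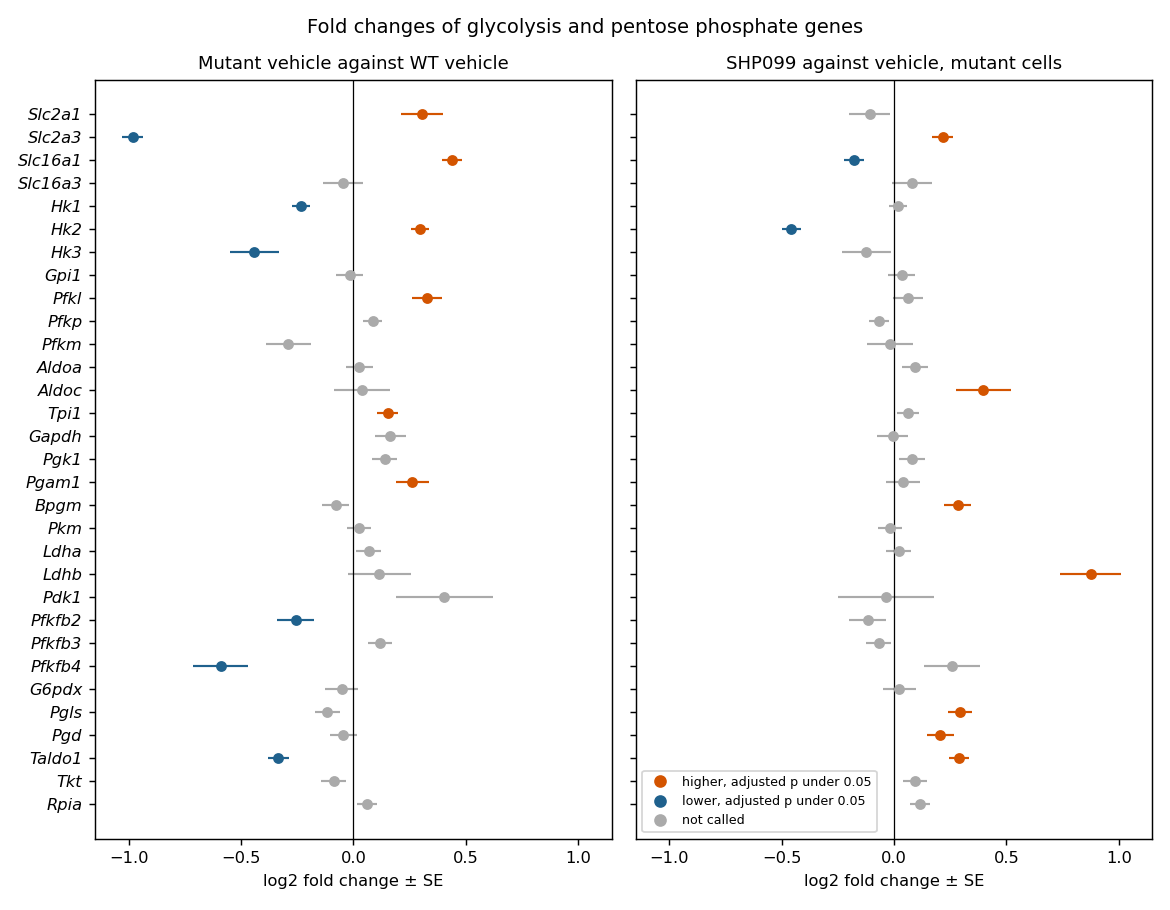
Log2 fold change with its standard error for 31 members, without Eno1 and Eno2, in mutant against WT vehicle cells (left) and in SHP099 against vehicle in mutant cells (right); orange and blue mark members called higher and lower, grey those not called. In the left panel Slc2a3 lies farthest from 0 at -0.98, and in the right panel Ldhb at 0.88 and Hk2 at -0.46.

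Among the carriers, the glucose transporter Slc2a3 (GLUT3, a high-affinity carrier; chr6:122727809-122801640, minus strand, GRCm38) showed the largest genotype difference of any called member. It measured 460.1, 418 and 463 CPM in the WT libraries, 222, 234 and 223 in mutant vehicle and 257, 267 and 265 with SHP099. Every mutant library was below every WT library, and every treated library was above every vehicle library of the same genotype. The log2 fold change was -0.98 ± 0.05 (SE) in mutant against WT (adjusted p = 7e-06 by edgeR), which is 1.97-fold lower, and 0.22 ± 0.05 with SHP099 (adjusted p = 0.01), 1.16-fold higher. SHP099-treated cells remained below WT by -0.77 ± 0.05 (adjusted p = 3.5e-05).

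Slc2a1 (GLUT1, the widely expressed glucose carrier) went the other way between genotypes. It stood at 72.4, 70.8 and 67.6 CPM in WT, 74.4, 89.0 and 96.8 in mutant vehicle and 73.0, 87.2 and 81.4 with SHP099. Mutant libraries were higher without overlap (log2 fold change 0.30 ± 0.09, adjusted p = 0.031 by edgeR), and treated and vehicle libraries overlapped (-0.11 ± 0.09, adjusted p = 0.44). Within the mutant cultures the treated library was below its vehicle library in 3 of 3 pairs, by log2 ratios from -0.25 to -0.03, and with the replicate block and removal of a trend on transcript length and GC content together Slc2a1 was called lower with SHP099 (-0.12, adjusted p = 0.032). The genotype call was lost in 7 of 16 alternatives, with adjusted p of 0.14 without mutant vehicle replicate 3, 0.097 without replicate 2 of that group, 0.054, 0.087 and 0.11 without WT replicates 1, 2 and 3, and 0.055 without SHP099 replicate 3. As a share of the summed CPM per kb of these glucose carriers, Slc2a1 made up 16.1% ± 0.998 in WT, 31.7% ± 2.78 in mutant vehicle and 27.1% ± 1.39 with SHP099 (SD, n = 3). With the union of exons as the length, these shares were 24.6%, 44.1% and 38.7%.

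The lactate and pyruvate carrier Slc16a1 (MCT1) measured 125, 129 and 135 CPM in WT, 169, 176 and 183 in mutant vehicle and 151, 161 and 155 with SHP099. The 3 groups did not overlap, with treated cells between the others. It was 1.35-fold higher in mutant than in WT cells (log2 fold change 0.44 ± 0.04, adjusted p = 0.00033 by edgeR) and 1.13-fold lower with SHP099 than with vehicle (-0.18 ± 0.04, adjusted p = 0.018). The call with SHP099 was lost when a trend on transcript length and GC content was removed (adjusted p = 0.07), without mutant vehicle replicate 2 or 3 (0.054 and 0.09) and without SHP099 replicate 1 or 3 (0.083 and 0.066). The replicate block in the mutant libraries alone kept it (-0.18, adjusted p = 0.0004). Slc16a3 (MCT4, the lactate exporter of glycolytic cells) lay between 133 and 165 CPM, its groups overlapped, and it was called in no comparison.

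The hexokinases, which trap glucose as glucose 6-phosphate, separated by isozyme. Hk2, the inducible form (chr6:82725025-82774454, minus strand), was at 122, 128 and 131 CPM in WT, 159, 149 and 160 in mutant vehicle, and 114, 115 and 112 with SHP099. The 3 groups did not overlap, and the treated libraries were the lowest. Hk2 was 1.23-fold higher in mutant than in WT cells (log2 fold change 0.30 ± 0.04, adjusted p = 0.0011 by edgeR) and 1.37-fold lower with SHP099 (-0.46 ± 0.04, adjusted p = 0.00037). In each of the 3 mutant cultures the treated library was below its vehicle library, by log2 ratios from -0.52 to -0.38. SHP099-treated cells were also below WT by -0.16 ± 0.04 (adjusted p = 0.016), a call lost without WT replicate 2 or 3 (0.054 and 0.051) and after removal of the length and GC trend (0.16).

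Hk1, the housekeeping hexokinase, and Hk3, a form abundant in granulocytes, were lower in mutant cells. Hk1 measured 441, 435 and 470 CPM in WT, 381, 378 and 387 in mutant vehicle and 384, 382 and 392.3 with SHP099. The mutant groups overlapped each other and lay below WT (log2 fold change -0.23 ± 0.04, adjusted p = 0.0024 by edgeR, vehicle cells), and Hk1 was not called with SHP099 (0.02 ± 0.04, adjusted p = 0.80). Hk3 fell from 583, 484 and 428 CPM in WT to 349.8, 342 and 408 in mutant vehicle (-0.44 ± 0.11, adjusted p = 0.014) and stood at 337, 314 and 359 with SHP099. With the replicate number as a block in the mutant libraries alone, Hk3 was also called lower with SHP099 (-0.12, adjusted p = 0.017, against 0.46 in the main fit). Of the summed hexokinase CPM per kb, Hk2 made up 8.20% ± 0.865 in WT, 12.2% ± 0.452 in mutant vehicle and 9.58% ± 0.473 with SHP099, while Hk3 was the most abundant form in each group at 54.5%, 49.1% and 48.5%.

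Of the phosphofructokinase genes, which encode the enzyme that commits sugar to glycolysis, Pfkl (liver type) was higher in mutant cells. Its libraries read 148, 143 and 144 CPM in WT, 167, 176 and 203 in mutant vehicle and 182, 199 and 188 with SHP099. All mutant libraries were above all WT libraries (log2 fold change 0.33 ± 0.07, adjusted p = 0.0058 by edgeR, vehicle cells), and the call held under all 16 alternatives. Pfkp (platelet type, 170 to 193 CPM) was called in no comparison. Pfkm (muscle type) was at 29.0, 29.0 and 35.9 CPM in WT and at 25.0, 27.8 and 24.0 in mutant vehicle (-0.29 ± 0.10, adjusted p = 0.054, or 0.042 without SHP099 replicate 3). Its difference from WT was called in treated cells (-0.31 ± 0.10, adjusted p = 0.043), though not without WT replicate 3 (0.13), mutant vehicle replicate 1 (0.055) or SHP099 replicate 1 or 3 (0.07 and 0.12). The Pfkl share of the summed CPM per kb was 42.6% ± 0.732, 47.9% ± 1.56 and 50.1% ± 0.805 in the 3 groups in the same order. None of the 3 genes was called with SHP099.

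Gpi1 (glucose 6-phosphate isomerase, 1310 to 1488 CPM) and Aldoa (1309 to 1527 CPM) were called in no comparison. Aldoc, the brain-type aldolase, was a minor form with 0.264% of the summed aldolase CPM per kb in WT (0.422% with the union of exons as the length). It measured 6.83, 6.04 and 6.73 CPM in WT, 5.63, 6.77 and 7.72 in mutant vehicle and 8.61, 9.71 and 8.20 with SHP099, so the treated libraries were the highest of all. The rise with SHP099 (log2 fold change 0.40 ± 0.12, adjusted p = 0.044 by edgeR) was lost in 8 of 17 alternatives. These included leaving out WT replicate 1 (0.053), mutant vehicle replicate 1 or 2 (0.12 and 0.076), or SHP099 replicate 1, 2 or 3 (0.072, 0.12 and 0.062). The replicate block in the mutant libraries alone kept the call (0.40, adjusted p = 0.00093).

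The PFKFB enzymes set the level of fructose 2,6-bisphosphate, the activator of phosphofructokinase. Pfkfb4 was at 95.6, 80.9 and 69.1 CPM in WT, 57.4, 53.8 and 51.7 in mutant vehicle and 75.5, 61.7 and 57.5 with SHP099. The mutant vehicle libraries were the lowest without overlap, and treated cells overlapped WT. Its fall in mutant cells was 1.51-fold (log2 fold change -0.59 ± 0.12, adjusted p = 0.0065 by edgeR). With SHP099 it was not called (0.26 ± 0.12, adjusted p = 0.17), whereas with the replicate block the adjusted p was 8.9e-05 (0.25), and it was higher in each of the 3 mutant cultures. Pfkfb2 fell from 24.3, 24.3 and 27.8 CPM in WT to 22.8, 21.4 and 19.9 in mutant vehicle (-0.26 ± 0.08, adjusted p = 0.039), a call lost without any of WT replicates 1, 2 and 3 (0.051, 0.05 and 0.10) or mutant vehicle replicates 2 and 3 (0.071 and 0.11). Pfkfb3, the isoform with high kinase activity, ranged from 119 to 140.4 CPM and was not called, and its share of the family's CPM per kb was 47.2% ± 1.89 in WT and 58.1% ± 1.18 in mutant vehicle.

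From the triose phosphates to pyruvate, changes were small. Tpi1 (triose phosphate isomerase) stood at 468, 449 and 446 CPM in WT, 479.5, 497 and 538 in mutant vehicle and 523, 535 and 524 with SHP099, and Pgam1 (phosphoglycerate mutase) at 121, 103 and 98.2, then 120.2, 131 and 135, then 129, 132 and 136. Both were called higher in mutant vehicle than in WT cells (log2 fold change 0.15 ± 0.05, adjusted p = 0.034, and 0.26 ± 0.08, adjusted p = 0.025 by edgeR). Tpi1 lost that call in 11 of 16 alternatives, with adjusted p of 0.13 without WT replicate 2 or 3, 0.077 and 0.18 without mutant vehicle replicates 2 and 3, and 0.071, 0.072 and 0.082 without SHP099 replicates 1, 2 and 3. Pgam1 lost it in 5 of 16, with 0.10 without WT replicate 2 or 3 and 0.08 and 0.10 without mutant vehicle replicates 2 and 3. Gapdh (744 to 946 CPM), Pgk1 (phosphoglycerate kinase, 191 to 239 CPM) and Pkm (1712 to 1924 CPM) were called neither between genotypes nor with SHP099. Pgk1 was higher in treated mutant than in WT cells (0.22 ± 0.06, adjusted p = 0.017), though not without WT replicate 2 or 3 (0.057 and 0.052) or SHP099 replicate 2 (0.062).

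Bpgm makes 2,3-bisphosphoglycerate in a side branch known from red cells. It was at 19.4, 19.2 and 20.9 CPM in WT, 19.2, 19.4 and 17.7 in mutant vehicle and 23.1, 23.1 and 22.3 with SHP099. The treated libraries were above all others, 1.22-fold over vehicle (log2 fold change 0.28 ± 0.06, adjusted p = 0.0094 by edgeR), and the call held under all 17 alternatives. Of 14 erythroid markers, the 4 globin genes were listed at 0 in every library. Of the 10 tested erythroid markers none was called higher with SHP099 and 1 (Tfrc) was lower, beside 8.81% and 13% of all genes. Of these 10, 9 had log2 fold changes above 0, with a median of 0.24 and a highest value of 0.58, while their sum ran from 795 to 832 CPM in mutant vehicle and from 715 to 839 CPM in treated cells.

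At pyruvate, Ldhb (the heart-type lactate dehydrogenase subunit; chr6:142490249-142507957, minus strand) had the largest response to SHP099 of all members. It measured 4.32, 3.63 and 3.34 CPM in WT, 3.98, 3.70 and 4.54 in mutant vehicle and 8.21, 6.56 and 7.63 with SHP099. WT and mutant vehicle libraries overlapped, and every treated library lay above them. The rise was 1.83-fold (log2 fold change 0.88 ± 0.14, adjusted p = 0.0022 by edgeR), present in each of the 3 mutant cultures with log2 ratios from 0.75 to 1.04, and ranked 234 of 13270 genes by size of change. Ldha, measured at 1043 to 1193 CPM, was not called (0.02 ± 0.06, adjusted p = 0.83), so Ldhb went from 0.497% ± 0.0529 to 0.895% ± 0.119 of the summed CPM per kb of the pair and remained the minor form. With the union of exons as the length, these shares were 0.751% and 1.35%. Of the Ldhb words of 50 bases, 27% also occur in other transcripts. Pdk1, a kinase that inhibits pyruvate dehydrogenase, varied between libraries (26.6 to 41.0 CPM in WT, 38.8 to 62.9 in mutant vehicle, 39.6 to 54.0 with SHP099) and was called in no comparison.

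In the pentose phosphate pathway, 3 of 6 members rose with SHP099 and none fell, beside 8.81% and 13% of all genes. All 6 had log2 fold changes above 0 with a median of 0.16, although that of G6pdx was -0.03 once the length and GC trend was removed. For 5 of the 6, every treated library was above every vehicle library, where 18.3% of all genes tested behaved so. In the oxidative arm, Pgls measured 107, 125.4 and 114 CPM in WT, 106, 106 and 108 in mutant vehicle and 134, 125.5 and 133 with SHP099. Its treated libraries were above all others, though barely above WT replicate 2 (log2 fold change over vehicle 0.29 ± 0.05, adjusted p = 0.0053 by edgeR). Against WT, the treated cells were higher by 0.18 ± 0.05 (adjusted p = 0.033), a call kept in 9 of 16 alternatives. Pgd (6-phosphogluconate dehydrogenase) measured 867, 829 and 767 CPM in WT, 768, 772 and 846 in mutant vehicle and 933, 881 and 939 with SHP099. WT and mutant vehicle libraries overlapped and the treated ones were higher (0.21 ± 0.06, adjusted p = 0.032). That call was lost after removal of the length and GC trend (0.11), without mutant vehicle replicate 1 or 2 (0.099 and 0.074) and without SHP099 replicate 1 or 3 (0.072 and 0.095). The replicate block in the mutant libraries alone kept it (0.21, adjusted p = 0.00046). G6pdx, which encodes the entry enzyme glucose 6-phosphate dehydrogenase, ranged from 449 to 561 CPM and was called in no comparison (0.02 ± 0.07 with SHP099, adjusted p = 0.86).

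In the non-oxidative arm, Taldo1 (transaldolase; chr7:141392199-141402968, plus strand) was low in mutant vehicle cells alone. It measured 654, 666 and 672 CPM in WT, 494, 551 and 534 in mutant vehicle and 633, 638 and 659 with SHP099. The mutant vehicle libraries were below all others, and WT and treated libraries overlapped. The log2 fold change was -0.33 ± 0.05 in mutant against WT vehicle cells (adjusted p = 0.0011 by edgeR), 0.29 ± 0.05 with SHP099 (adjusted p = 0.0026) and -0.05 ± 0.05 in treated mutant against WT cells (adjusted p = 0.47). Tkt read 1769, 1699 and 1600 CPM in WT, 1601, 1573 and 1598 in mutant vehicle and 1804, 1633 and 1653 with SHP099. It was not called with SHP099 (0.09 ± 0.06, adjusted p = 0.26), though the treated libraries lay above the vehicle ones. Rpia (ribose 5-phosphate isomerase) read 205, 215 and 204 CPM in WT, 222, 206 and 223 in mutant vehicle and 240.0, 224 and 240.2 with SHP099. It passed the test with SHP099 when the replicate block was used (0.12, adjusted p = 0.015, against 0.10 in the main fit). It did not pass with the block and removal of the length and GC trend together (0.03, adjusted p = 0.53). It was higher in treated mutant than in WT cells (0.17 ± 0.05, adjusted p = 0.017), though not without WT replicate 3 (0.064) or SHP099 replicate 1 or 3 (0.062 and 0.10).

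**Figure D3:**
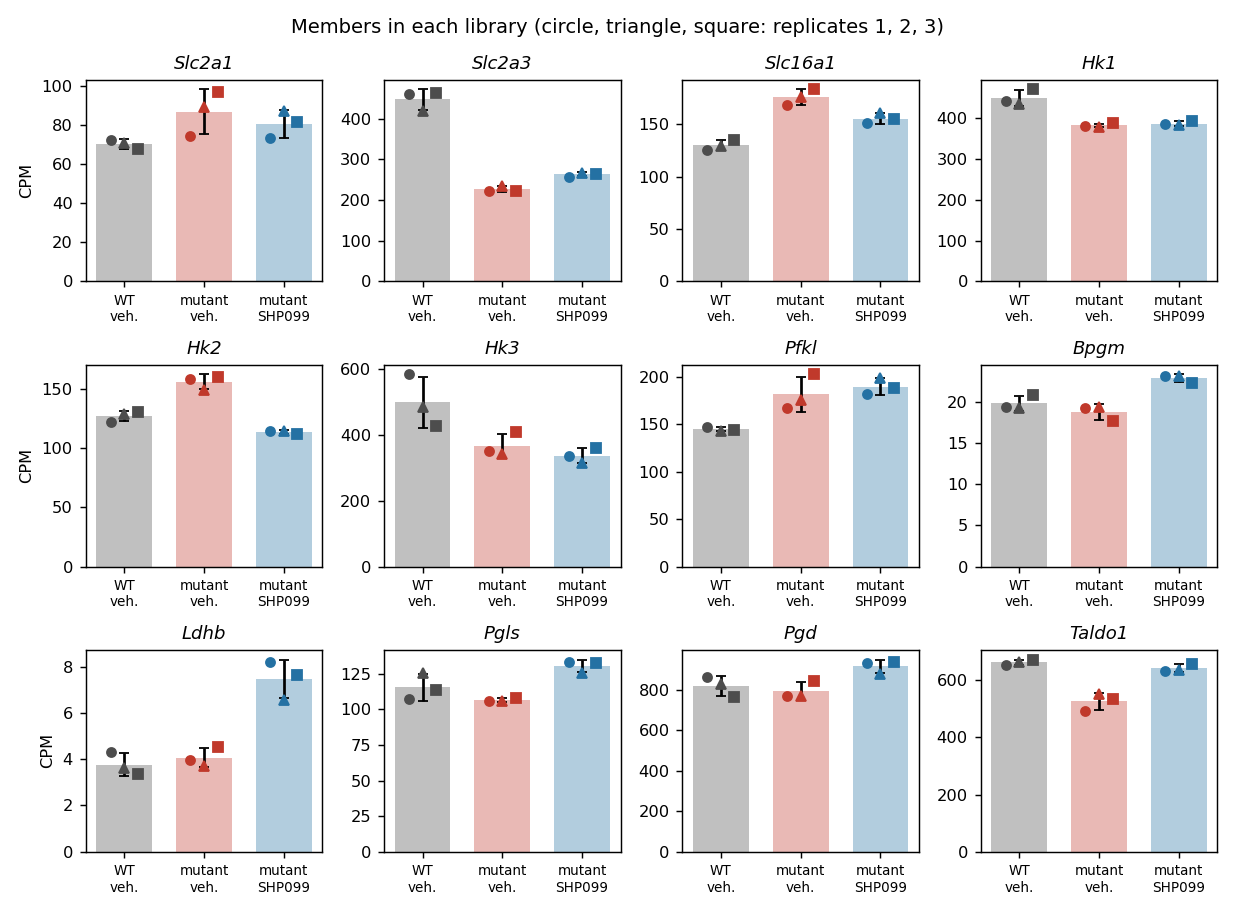
CPM of 12 members in each of the 9 libraries; bars are group means with SD (n = 3), symbols are replicates 1, 2 and 3, and each axis starts at 0. Slc2a3 is lower in both mutant groups than in WT, Hk2 is highest with vehicle and lowest with SHP099 in mutant cells, Taldo1 is low in mutant vehicle cells, and Ldhb, Bpgm and Pgls are highest with SHP099.

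**Figure D4:**
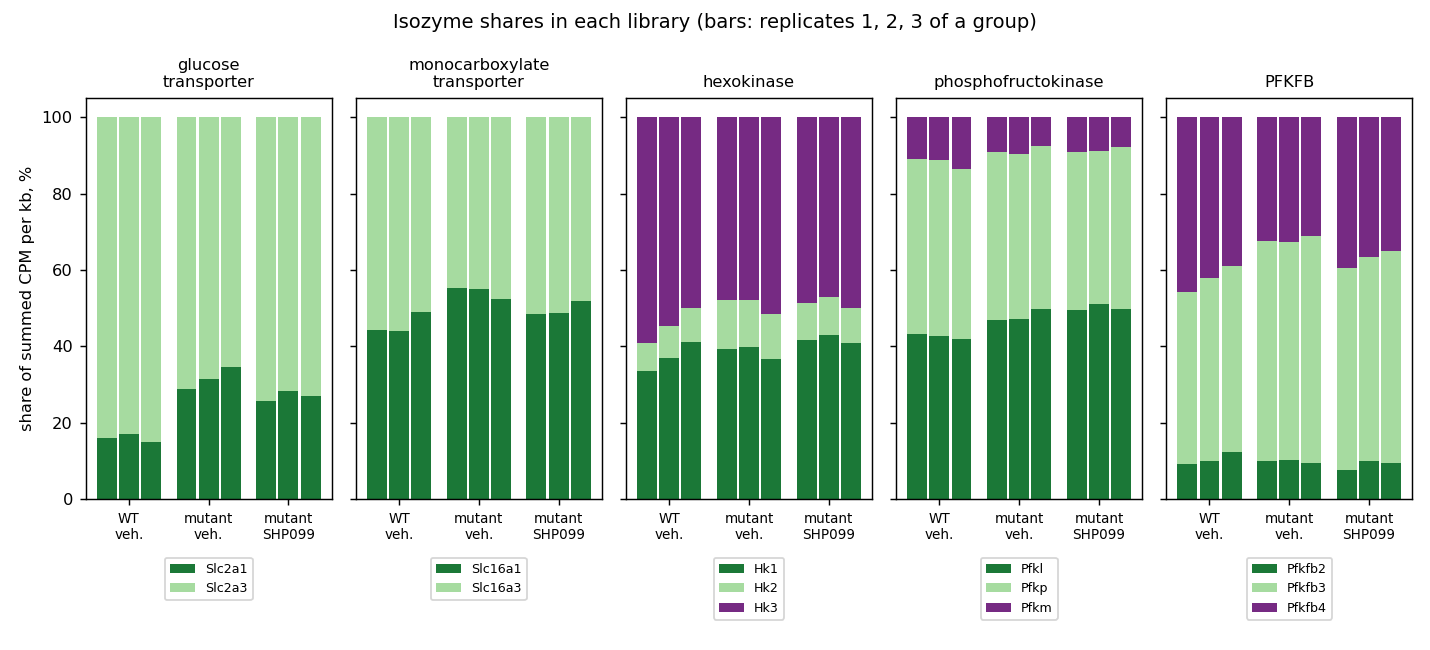
Share of each isozyme in the summed CPM per kb of its family, one bar per library and 3 bars per group. Slc2a1 goes from 16.1% in WT to 31.7% in mutant vehicle and 27.1% in SHP099-treated cells, Hk2 from 8.20% to 12.2% and 9.58%, and Pfkl from 42.6% to 47.9% and 50.1%.

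Transcript length and cell type markers moved with these results. Across the 32 tested members transcript length and the log2 fold change with SHP099 had a Spearman correlation of -0.59, and across 12801 genes of known length it was -0.34, a description over genes that share the same libraries. Hk2 and Slc16a1 have transcripts of 5513 and 4426 bases, whereas those of Ldhb, Pgls and Taldo1 have 1304, 1062 and 1362. With a smooth trend on length and GC content removed, Slc2a3, Hk2, Bpgm, Ldhb, Pgls and Taldo1 kept their calls and Slc16a1, Aldoc and Pgd did not, whereas with the replicate block as well these 3 were called (adjusted p = 0.0046, 0.0083 and 0.0026). The same removal, without the block, took the log2 fold change of Taldo1 from 0.29 to 0.17 and that of Pgls from 0.29 to 0.19. Counts of called markers below stand beside 16.9% of all genes called higher and 14.7% called lower between genotypes. With SHP099 these shares were 8.81% and 13%. The 11 mature neutrophil markers in the table summed to 24179 to 30610 CPM in WT, 17653 to 18721 in mutant vehicle and 25516 to 30502 with SHP099. Of these, 7 were called lower and 1 higher in mutant against WT vehicle cells, and 4 were higher and none lower with SHP099. This order of groups is that of Taldo1 and, in part, of Slc2a3 and Pfkfb4. It is not particular to neutrophil markers. Mean sums in WT, mutant vehicle and treated cells were 2425, 1468 and 2038 CPM for mast cell and basophil markers. For megakaryocyte markers they were 3363, 1596 and 2039, and for stromal and endothelial markers 242, 207 and 234. Mean sums of erythroid and eosinophil markers were instead lowest with SHP099, and that of monocyte and macrophage markers was lowest in WT. The 9 megakaryocyte markers were all lower in mutant cells (3055 to 3841 CPM summed in WT, 1373 to 1881 in mutant vehicle, 1693 to 2259 with SHP099), and 2 of them rose with SHP099. Of 10 mast cell and basophil markers, 8 were lower in mutant vehicle cells and 4 rose with SHP099. Of 11 monocyte and macrophage markers, 2 rose with SHP099, and their sum was 978 to 1249.8 CPM in WT, 1135 to 1272 in mutant vehicle and 1678 to 1703 with SHP099. Of 10 tested erythroid markers, 9 were lower and 1 higher in mutant vehicle cells, with sums of 909.5 to 1122 CPM in WT beside the mutant sums above. Of 5 tested eosinophil markers, 2 were lower in mutant vehicle cells and 1 fell with SHP099 (512 to 584 CPM in WT summed over 6 in the table, 196 to 258 in mutant vehicle, 169 to 203 with SHP099). Of 5 tested stromal and endothelial markers, 3 were lower and 1 higher in mutant vehicle cells and none was called with SHP099 (232 to 256, 181 to 221 and 199 to 260.3 CPM in the 3 groups, summed over 8 in the table). Apart from the 4 globin genes, no defining marker of these 7 lists was at 0 in a whole group. The part of transcript length and of these cell types in the members' differences was not tested.

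Genes around the pathway were read from lists of related enzymes. In the branch that takes 3-phosphoglycerate to serine, glycine and one-carbon units, 5 of 8 genes were higher in mutant vehicle than in WT cells and 4 of 8 fell with SHP099, beside 16.9% and 13% of all genes. All 8 had every treated library below every vehicle library, where 22.4% of all genes tested did. Shmt2 (mitochondrial serine hydroxymethyltransferase) measured 314, 321 and 325 CPM in WT, 368, 358 and 374 in mutant vehicle and 311, 307 and 318 with SHP099, so mutant vehicle cells stood alone. Its log2 fold changes were 0.20 ± 0.04 by genotype (adjusted p = 0.0033 by edgeR) and -0.23 ± 0.04 with SHP099 (adjusted p = 0.002). Phgdh, the entry enzyme of serine synthesis, changed by 0.21 ± 0.04 and -0.13 ± 0.03 (adjusted p = 0.0022 and 0.025). The mitochondrial folate enzyme gene Mthfd1l changed by 0.13 ± 0.04 and -0.29 ± 0.04 (adjusted p = 0.032 and 0.0013).

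Of 10 other tested pentose phosphate genes, 4 were higher in mutant vehicle cells and none lower, beside 16.9% and 14.7% of all genes, all 4 of them in the step that activates ribose 5-phosphate for nucleotide synthesis: Prps2, Prps1, Prpsap2 and Prpsap1. With SHP099, 1 of the 10 rose, beside 8.81% of all genes, the ribokinase gene Rbks (0.27 ± 0.08, adjusted p = 0.049 by edgeR). Prps2 read 47.5, 45.0 and 45.8 CPM in WT and 55.2, 58.3 and 56.9 in mutant vehicle, without overlap (0.30 ± 0.05, adjusted p = 0.0025). Among 19 other glycolysis genes tested, 2 were higher and 5 lower in mutant vehicle cells, beside 16.9% and 14.7% of all genes, and 1 fell with SHP099, beside 13%. That one was Tigar, which encodes a fructose 2,6-bisphosphatase, at 35.5, 34.2 and 31.8 CPM in WT, 43.6, 47.1 and 47.2 in mutant vehicle and 38.7, 38.0 and 41.3 with SHP099. It differed in both comparisons (0.44 ± 0.06, adjusted p = 0.00091, and -0.22 ± 0.06, adjusted p = 0.022). Adpgk, the ADP-dependent glucokinase, was 1.72-fold lower in mutant than in WT cells (-0.78 ± 0.07, adjusted p = 0.00023) and was not called with SHP099 (0.03 ± 0.07, adjusted p = 0.79).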

How the data were processed

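The values are raw counts per gene symbol as deposited by the authors, in 1 table with a column for each of 9 libraries, from stranded TruSeq mRNA libraries of total RNA, per the labels. Tools in the submitters' processing notes are FastQC, STAR, featureCounts and Subread, with the build mm10. Versions, annotation and strand setting of the counting: not given in the sources used here, so reads of antisense or overlapping genes may not be separable. The column of 1 library ends in another character than the title of its sample and was taken as SHP099 replicate 3, the sole sample of that genotype, number and treatment.

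Groups come from the labels. P-values reflect the spread among these libraries. In the mutant groups it lies between cultures from individual mice and may be technical in part. In WT, whose source animals are not named individually, it may be technical. Replicates differed by more than sampling noise (chi-square per degree of freedom 10.9 to 114). Replicate numbers come from the titles. Deviations from the group mean of same-numbered mutant vehicle and SHP099 libraries correlated at 0.54, 0.60 and 0.56 across genes, so these numbers mark pairs. The main fit leaves these pairs out, so its errors and p-values with SHP099 do not use the pairing. The replicate block in the mutant libraries alone does.

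Tests were run on the counts with edgeR 4.0.16 in R 4.3.3, using filterByExpr (minimum count 10; 13270 genes kept), TMM scaling, and a single quasi-likelihood fit of 3 group means to all 9 libraries, with 3 contrasts, two-sided tests and Benjamini-Hochberg adjustment over all genes at 0.05. Errors of fold changes are standard errors. Lengths are those of the longest coding transcript in GENCODE M21 (GRCm38), which held 23376 of 24421 symbols and all 33 members. Alternatives were DESeq2 1.42.0, its size factors in edgeR, other filters, the compared groups alone, each library left out, a replicate block, and removal of a length and GC trend (lowess span 0.3). For SHP099 against vehicle, the block was fitted to the mutant libraries alone, with 13004 genes kept. The scripts were tested on simulated data.

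All 33 members are reported, with Tet2, Flt3 and Ptpn11. From related lists, genes were named from among the up to 4 called genes with the smallest p in a contrast. Genes that complete a list's count, and some that were not called, are named as well, and not every gene the rule takes is reported. The members and lists were chosen with earlier results of these data known.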

Additional observations from a re-analysis of the deposited data

How the results depend on the processing

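Of the 9 members called with SHP099, 6 were called under each of 17 alternatives (Slc2a3, Hk2, Bpgm, Ldhb, Pgls and Taldo1), as were 8 of 12 between genotypes and 7 of 16 in treated mutant against WT cells under each of 16. Others were called less often, such as Aldoc with SHP099 in 9 of 17 and Tpi1 between genotypes in 5 of 16. No called member turned sign. Over 1560 combinations of member, comparison and alternative, 84 lost a call and 27 gained one, and 72 uncalled values turned sign. With the length and GC trend removed, 1 member was lower with SHP099 and 3 were lower in treated mutant against WT cells. Over the alternatives other than leaving out 1 library, 1423 to 2772 genes were lower with SHP099. In treated mutant against WT cells these were 1754 to 2251 genes. With the replicate block, 2791 of 13004 genes were higher and 2772 lower with SHP099, and 9 members were higher and 3 lower. With block and trend removal together these were 2590 and 2663 genes, and 8 and 4 members, Slc2a1 among the 4. Beside the members named with it above, the block alone changed no other call of a member in that comparison. WT and mutant cultures have nothing but a number in common, and the block there gave 5 members higher and 5 lower between genotypes. Alternatives other than leaving out 1 library gave 1432 to 2228 genes higher and 1826 to 2103 lower in that comparison. With the 2 compared groups alone, 3 members and 1432 genes were higher in mutant than in WT cells.

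Leaving out 1 library at a time gave 5 to 7 members higher and 1 to 2 lower with SHP099 (673 to 1354 and 1090 to 1759 genes), 3 to 8 and 5 to 8 between genotypes (1351 to 1979 and 1528 to 2048 genes), and 6 to 11 and 5 to 7 in treated mutant against WT cells (1080 to 2181 and 1650 to 2222 genes). The cause of these shifts was not tested. An arm left with 2 libraries is assumed to vary like the others. Counts of Eno1 and Eno2 are near 0, and no difference is read for either.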

Other observations

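Entry of pyruvate into mitochondria and the citric acid cycle were read in the same fits. Pdk2, a kinase that inhibits pyruvate dehydrogenase, measured 6.00, 5.79 and 6.35 CPM in WT, 3.16, 3.53 and 3.23 in mutant vehicle and 5.19, 5.73 and 4.34 with SHP099. The mutant vehicle libraries were the lowest without overlap, and the log2 fold changes were -0.87 ± 0.12 by genotype (adjusted p = 0.0011 by edgeR) and 0.62 ± 0.12 with SHP099 (adjusted p = 0.0066). The pyruvate dehydrogenase subunit gene Pdha1 went the other way, with 0.22 ± 0.03 and -0.13 ± 0.03 (adjusted p = 0.001 and 0.017). Of 19 citric acid cycle genes, 8 were higher and none lower in mutant vehicle cells, beside 16.9% and 14.7% of all genes, and with SHP099 2 rose and 4 fell, beside 8.81% and 13%. Idh3a, a subunit of the NAD-dependent isocitrate dehydrogenase, changed by 0.27 ± 0.04 and -0.23 ± 0.04 (adjusted p = 0.0016 and 0.004).

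Among regulators of these pathways, Myc measured 222, 241 and 231 CPM in WT, 339.7, 311 and 325 in mutant vehicle and 290.2, 276 and 287 with SHP099. The 3 groups did not overlap (0.49 ± 0.05 by genotype, adjusted p = 0.00023, and -0.19 ± 0.05 with SHP099, adjusted p = 0.016, by edgeR). Hif1a was higher in mutant vehicle cells (0.31 ± 0.04, adjusted p = 0.0011) and was not called with SHP099 (0.03 ± 0.04, adjusted p = 0.69). Of 21 tested HIF targets outside glycolysis, 4 were higher and 7 lower between genotypes, and 5 rose and none fell with SHP099, beside 16.9%, 14.7%, 8.81% and 13% of all genes in that order. Of 13 tested glycogen genes, 3 rose with SHP099 (Pygl, Gyg and Ppp1r3d) and none fell, beside 8.81% and 13% of all genes. The cystine carrier gene Slc7a11 fell from 20.1, 21.1 and 20.7 CPM with vehicle to 13.4, 14.6 and 12.7 with SHP099, without overlap (-0.61 ± 0.08, adjusted p = 0.001). The part of cell type markers and transcript length in these values was not tested.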
